A study of Mus musculus with 77 samples.

Results

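The 49 genes described here encode the enzymes and regulators of chromosomal DNA replication and S phase. They were taken as a fixed list of names, which was chosen with earlier results of these data known. All 49 were measured among 19938 genes in RNA from mouse testes, taken after 9 days of treatment or later. The ages of the mice are not given here. The list holds 6 licensing genes, the 6 subunits of the MCM helicase, 6 firing factors, 9 polymerase and primase subunits, 6 genes of the sliding clamp and its loader, 3 of replication protein A (RPA), 2 of flap removal and ligation, 5 of nucleotide supply, 2 of fork protection, 2 E cyclins and 2 subunits of the histone chaperone CAF-1. The mice carried a RiboTag allele, a ribosomal protein gene that gains an epitope tag in cells with Cre recombinase, so that polysome-associated RNA can be immunoprecipitated (IP) from those cells. Germ cell ribosomes were tagged with Stra8-cre (FVB/N strain, 16 IP arrays and 23 arrays of total testis RNA) or Ngn3-cre (C57BL/6, 4 IP and 4 total arrays). Sertoli cell ribosomes were tagged with Amh-cre (FVB/N, 16 IP and 14 total arrays). All mice, the time 0 groups included, received WIN,18446 (BDAD), an inhibitor of retinoic acid (RA) synthesis, for 9 days. They were then killed (time 0) or injected with RA and sampled after 4h, 12h, 24h, 48h, 4d, 6d or 8d (0 and 4h for Ngn3). Most groups had 2 arrays, while Stra8 total RNA had 3 at 4h and 4 each at 0, 24h and 48h, and Amh total RNA covers all times but 4h, which was not analysed here. No vehicle-injected samples were analysed here, so the effects of RA, of the injection, of age and of the end of BDAD treatment cannot be told apart. Nor can line and strain be told apart for Ngn3.

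Replication starts from origins that were loaded with an inactive MCM helicase in G1. The origin recognition complex, Cdc6 and Cdt1 do the loading, and geminin (Gmnn) blocks Cdt1 so that each origin fires only once per cycle. Cyclin E with its kinase, Cdc45, the GINS complex and Mcm10 then turn the helicase on, and the polymerases, clamp, ligase and ribonucleotide reductase follow. In cultured mammalian cells many of these genes are switched on together at the G1 to S boundary by E2F transcription factors. In the postnatal testis both spermatogonia and immature Sertoli cells divide, and germ cells run a last round of replication, premeiotic S phase, before meiotic prophase.

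Promoters are shown for 5 members whose RNA is followed below, because E2F-type sites are the sequence feature the group is best known for. A window from 250 bases before to 50 bases after the RefSeq start (GRCm38.p6) was at hand for 39 of the 49 genes. The letters TTTCCCGC, TTTCGCGC, TTTGCCGC and TTTGGCGC were searched on both strands, and matches are in capitals. Windows are given 5′ to 3′ on the gene's strand: Mcm6 (chr1:128359656-128359955, minus strand), Orc1 (chr4:108579204-108579503, plus strand), Cdc6 (chr11:98907901-98908200, plus strand), Pole2 (chr12:69228141-69228440, minus strand) and Rrm2 (chr12:24708004-24708303, plus strand).
Mcm6: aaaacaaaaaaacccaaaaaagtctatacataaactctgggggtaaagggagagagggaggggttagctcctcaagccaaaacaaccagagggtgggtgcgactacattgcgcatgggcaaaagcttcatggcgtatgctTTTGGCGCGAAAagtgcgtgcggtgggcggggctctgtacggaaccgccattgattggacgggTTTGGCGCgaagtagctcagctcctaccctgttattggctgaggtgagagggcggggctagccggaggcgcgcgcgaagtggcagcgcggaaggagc
Orc1: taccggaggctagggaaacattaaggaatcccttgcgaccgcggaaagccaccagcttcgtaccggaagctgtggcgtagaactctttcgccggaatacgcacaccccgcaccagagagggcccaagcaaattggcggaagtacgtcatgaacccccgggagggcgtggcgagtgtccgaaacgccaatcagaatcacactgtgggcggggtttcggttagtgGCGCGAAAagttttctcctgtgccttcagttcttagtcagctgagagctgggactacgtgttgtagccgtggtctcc
Cdc6: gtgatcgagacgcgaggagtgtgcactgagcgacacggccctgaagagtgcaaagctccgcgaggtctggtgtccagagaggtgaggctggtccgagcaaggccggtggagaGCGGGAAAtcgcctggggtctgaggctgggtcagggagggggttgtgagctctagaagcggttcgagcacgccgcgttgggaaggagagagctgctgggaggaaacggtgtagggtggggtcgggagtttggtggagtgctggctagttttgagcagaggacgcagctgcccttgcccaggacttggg
Pole2: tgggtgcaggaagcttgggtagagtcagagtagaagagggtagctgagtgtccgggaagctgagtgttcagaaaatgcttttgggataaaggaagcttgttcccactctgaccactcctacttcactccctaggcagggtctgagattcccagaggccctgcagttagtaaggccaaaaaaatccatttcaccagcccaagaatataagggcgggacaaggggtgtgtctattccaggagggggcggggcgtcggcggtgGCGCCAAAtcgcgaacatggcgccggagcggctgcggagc
Rrm2: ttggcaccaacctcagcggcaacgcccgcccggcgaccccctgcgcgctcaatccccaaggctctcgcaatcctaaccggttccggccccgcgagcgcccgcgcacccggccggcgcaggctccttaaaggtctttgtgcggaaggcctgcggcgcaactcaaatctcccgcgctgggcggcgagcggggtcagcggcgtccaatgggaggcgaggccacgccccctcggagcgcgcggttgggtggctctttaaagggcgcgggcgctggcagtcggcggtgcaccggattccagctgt
The Mcm6 window held 3 matches, of which 2 overlap on opposite strands, the windows of Orc1, Cdc6 and Pole2 held 1 each, and the Rrm2 window held none of these letters. Of the members with a window, 14 genes (35.9%) had at least 1 match, and so did 31.1% of their 45 windows. The share was 33.3% of 60 windows of other replication genes and 2.26% of 32851 windows in all. Besides the 4 genes shown, the members with a match were Mcm3, Mcm5, Mcm7, Rfc3, Lig1, Pold1, Pold3, Gins3, Cdt1 and Pola1.

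Levels are log2 of the deposited intensities and are compared for the same gene only. Differences are log2 differences with the standard error (SE) of 1 limma fit over all 77 arrays, with Benjamini-Hochberg adjustment over 19938 genes. A gene was called, and is said to have risen or fallen, at an adjusted p under 0.05 and a difference of at least 2-fold. Nothing in the labels says that arrays of a group came from separate animals, so a p-value reflects the spread among the samples at hand and that spread may be technical. Arrays of a group correlated across genes at r of 0.958 to 0.999 (median 0.995).

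Marker lists followed the labelled cell types in IP RNA, with exceptions that touch the results. The mean level of 12 germ cell genes was 10.96 to 11.53 in Stra8 IP, 11.56 to 11.65 in Ngn3 IP and 7.74 to 8.79 in Amh IP arrays, and that of 13 Sertoli cell genes was 9.08 to 11.16, 9.85 to 10.08 and 12.55 to 12.71 in the same order. No defining marker was absent from the other cell type's IP RNA. Amh, made by Sertoli cells, reached 10.72 in 1 Stra8 IP array, and Ddx4, a germ cell helicase, reached 9.73 in 1 Amh IP array. Stra8 IP replicate 1 at 4d had the highest Sertoli mean (11.16). The Amh IP arrays labelled 4h and 4d stood apart from their neighbours: the mean of 11 mitosis genes was 10.68 and 10.54 at 0, 8.78 and 8.73 at 4h, 9.78 and 9.80 at 12h, 8.59 and 8.76 at 48h, 10.10 and 10.30 at 4d, and 9.10 and 9.61 at 6d. Among the Stra8 total arrays labelled 4h, replicates 2 and 3 had a mean of 10.46 and 10.55 over 4 genes of differentiating spermatogonia, against 8.59 in replicate 1. Whether the time labels of these Amh IP arrays and of the Stra8 total arrays labelled 4h are right was not tested, and values given for these times are those of arrays so labelled. A set of 3 Stra8 total arrays (4h replicate 1, 24h replicates 3 and 4) had a narrow range of signal.

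**Figure D1:**
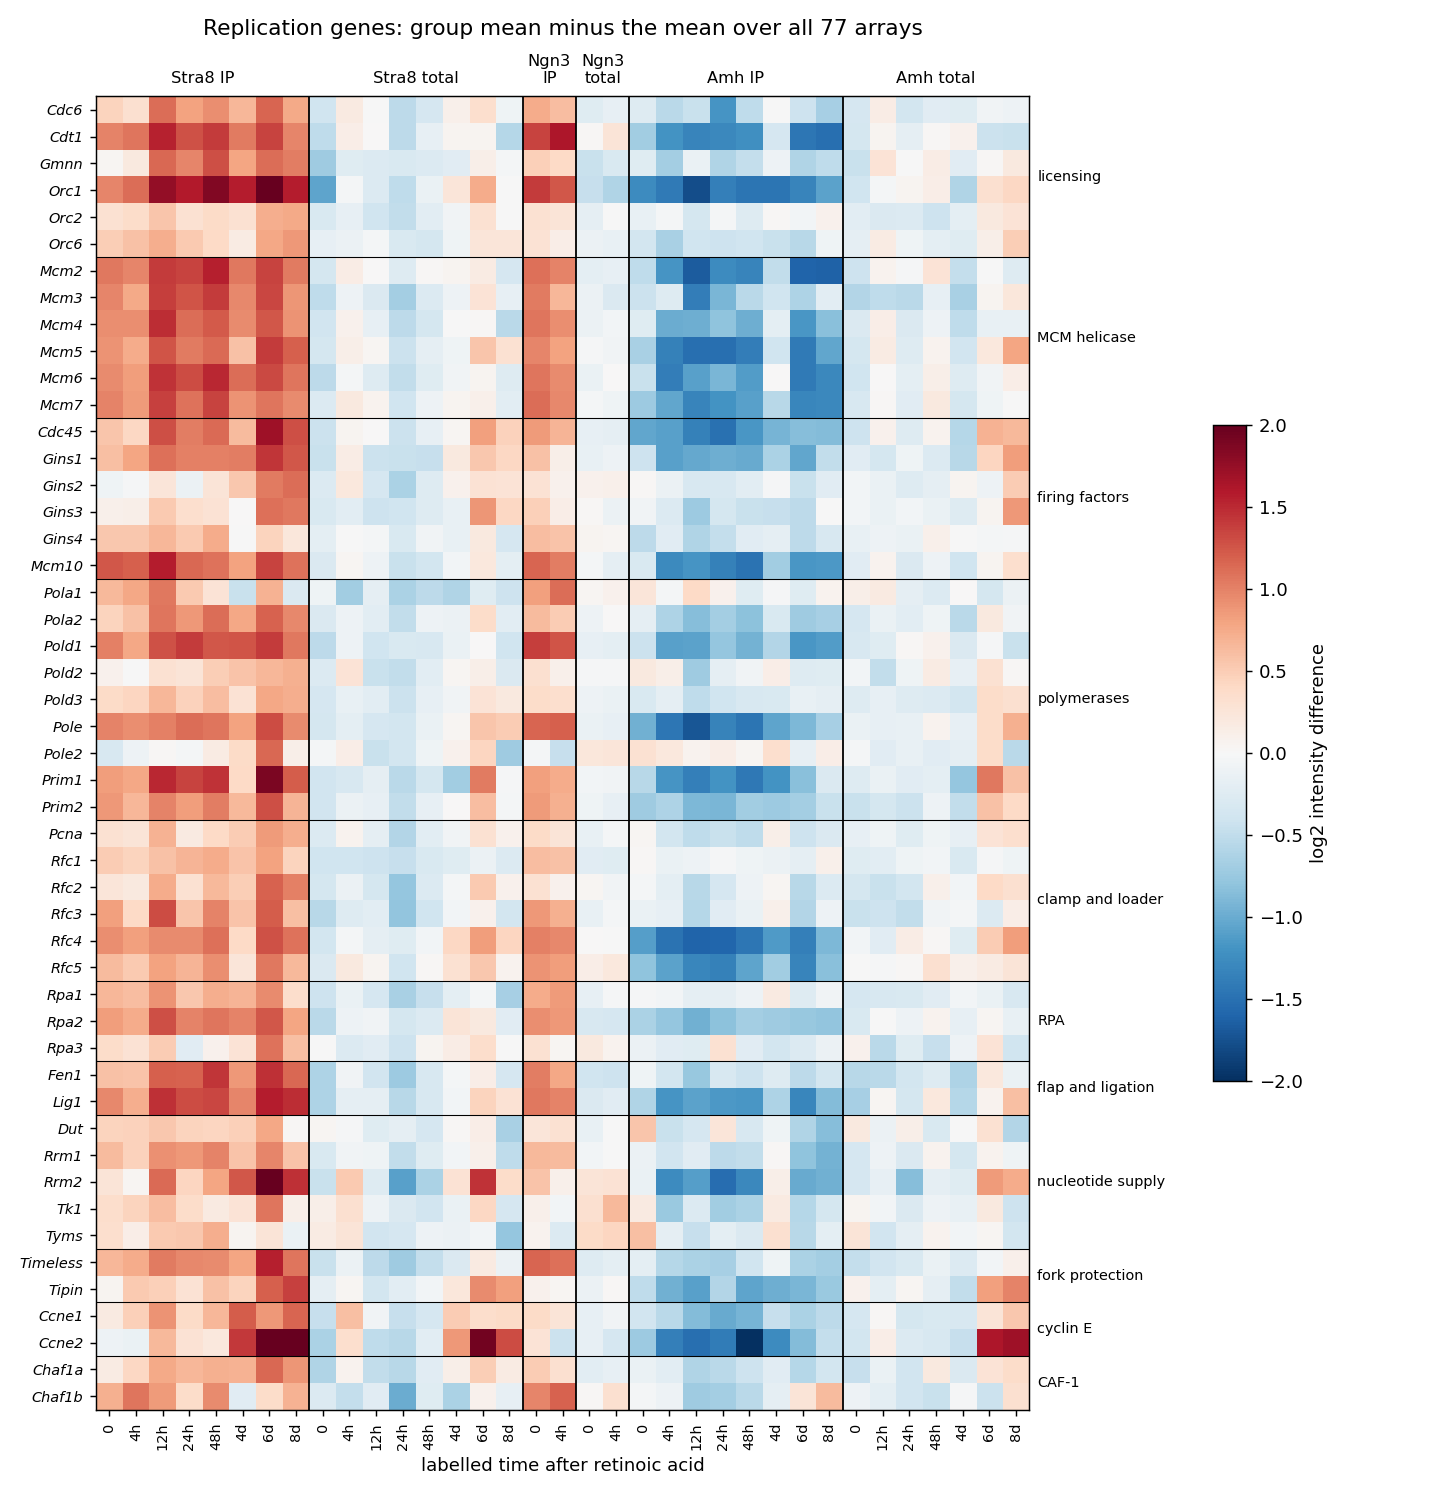
Level of each replication gene in each group, as the group mean minus that gene's mean over all 77 arrays (log2 intensity, colour), with genes in rows by role and labelled times in columns. Stra8 and Ngn3 IP groups are red for most genes, Amh IP groups are blue for most but not all genes, and Amh IP at 0 and 4d is paler than at the other times.

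Replication genes were more abundant in germ cell IP RNA than in total testis RNA. Averaged over 8 times, all 49 were higher in Stra8 IP at an adjusted p under 0.05, where 42.4% of all genes were higher, and 21 were called higher and 0 lower, where 3.84% and 5.37% of all genes were called. The differences ran from 0.30 (Pole2) to 1.69 (Orc1) with a median of 0.95, against 0.04 over all genes. For 31 members every IP array lay above every total array of the same time. The share of all genes for which this held is not given here, so that count cannot be weighed against it. Without the 3 total arrays of narrow range 17 members were called, with Mcm5 and Rpa1 at 0.99 and Pola2 and Gins1 at 0.98.

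All 6 MCM genes were called higher in Stra8 IP, by 1.03 (Mcm5) to 1.42 (Mcm6). Mcm6 levels were 11.35 to 12.09 (median 11.81) in 16 Stra8 IP arrays and 9.86 to 10.77 (median 10.28) in 23 Stra8 total arrays, with no overlap, and the difference was 1.42 (SE 0.05, adjusted p = 1.23e-31). Orc1, the largest subunit of the origin recognition complex, had levels of 9.85 to 11.07 (median 10.78) in IP and 7.85 to 9.80 (median 8.87) in total RNA, and a difference of 1.69 (SE 0.09, adjusted p = 4.99e-22). Its lowest IP array barely exceeded its highest total array, but at no single time did the fractions overlap. Other called members were the loader Cdt1 (1.40), the polymerase delta catalytic subunit Pold1 (1.45), the primase subunit Prim1 (1.36), Lig1 (1.38) and Fen1 (1.35), which seal and trim Okazaki fragments, and the fork protein Timeless (1.28). None of the 5 nucleotide supply genes was called, with differences such as 0.47 for Tyms, 0.60 for Dut and 0.95 for Rrm2.

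Ngn3 IP RNA gave 14 members called higher and 0 called lower, where 6.18% and 6.75% of all genes were called. At an adjusted p alone 39 were higher and 3 lower, where 31.5% and 24.1% of all genes were. The median was 0.84, against 0.05 over all genes. Orc1 levels were 10.24 to 10.58 in the 4 Ngn3 IP arrays and 8.43 to 8.67 in the 4 Ngn3 total arrays, without overlap, and the difference was 1.85 (SE 0.20, adjusted p = 2.21e-11). Pold1 (1.50), Timeless (1.36), Cdt1 (1.34) and Pole, the catalytic subunit of polymerase epsilon (1.32), came next. Against the rest, Tyms (-0.51), Pole2 (-0.49) and Tk1 (-0.46) were lower in Ngn3 IP than in Ngn3 total RNA at an adjusted p under 0.05 but short of 2-fold. Tyms makes thymidylate and Tk1 salvages thymidine. The direction of these 3 genes was positive in the Stra8 line (0.47, 0.30 and 0.48), and the difference between lines was not tested for the fractions.

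In the Amh line the direction was the opposite. Of the 49 members 8 were called lower and 0 higher in Amh IP than in Amh total RNA (mean over 7 times), where 3.94% and 1.1% of all genes were called, and 38 were lower at an adjusted p alone, where 23.2% of all genes were. The median was -0.39, against 0.12 over all genes. The 8 were Ccne2 (-1.47), the clamp loader subunits Rfc4 (-1.45) and Rfc5 (-1.17), Orc1 (-1.38), Pole (-1.23), Mcm5 (-1.16), Cdc45 (-1.14) and Mcm2 (-1.09). Rfc4 levels were 9.57 to 10.50 (median 10.02) in 16 Amh IP arrays and 11.09 to 12.26 (median 11.42) in 14 Amh total arrays, with no overlap (SE 0.05, adjusted p = 3.32e-29). Mcm2 and Mcm5 overlapped at 1 or more times. The members that were higher at an adjusted p alone were Pole2 (0.26) and the RPA subunit Rpa1 (0.15), where 51% of all genes were. Leaving out the Amh arrays with the labels 4h and 4d, 15 members were called lower. In bulk RNA such as the total fraction, fewer cells of a type and less RNA per cell cannot be told apart.

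**Figure D2:**
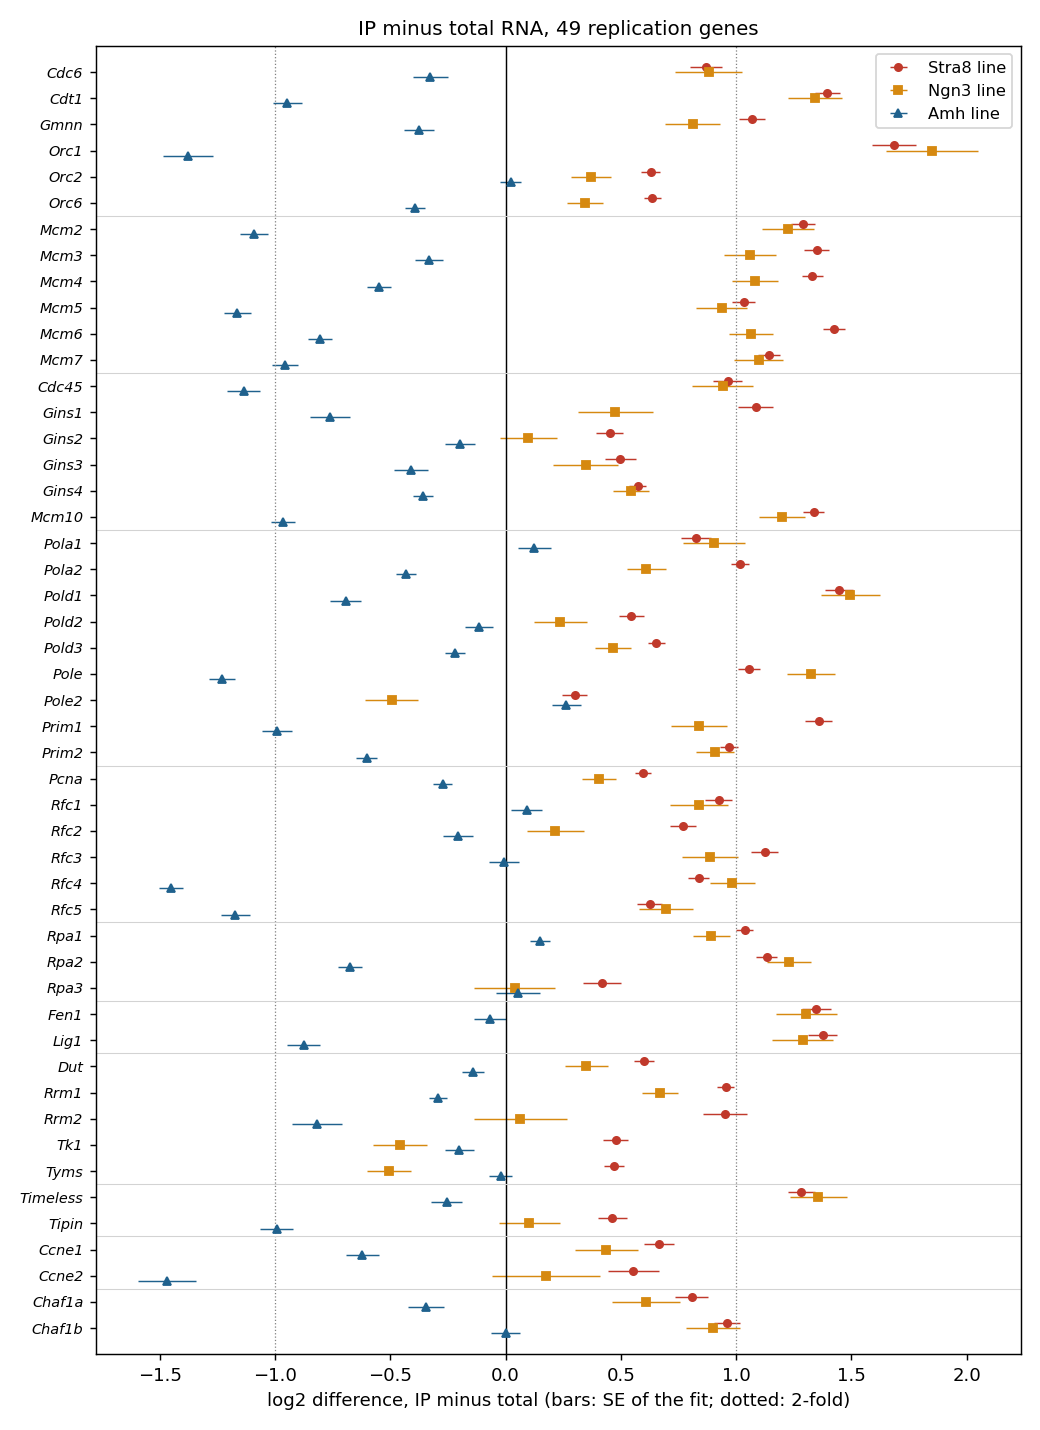
Difference between IP and total RNA for each replication gene (log2, horizontal axis), with points for the Stra8, Ngn3 and Amh lines, bars for the SE of the fit and dotted lines at 2-fold. Stra8 and Ngn3 points lie right of 0 except Tyms, Pole2 and Tk1 in Ngn3, and most Amh points lie left of it.

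Between the cell types, 31 members were called higher and 0 lower in Stra8 IP than in Amh IP RNA over 8 times, where 7.54% and 9.26% of all genes were called. The median difference was 1.44, against -0.02 over all genes. Orc1 (2.95, SE 0.10), Mcm2 (2.42, SE 0.06), Cdt1 (2.33, SE 0.06), Rfc4 (2.27, SE 0.05) and Mcm10 (2.26, SE 0.05), an MCM-binding firing factor, had the largest differences, with adjusted p between 1.34e-39 (Rfc4) and 2.22e-31 (Orc1). Mcm2 levels were 12.35 to 12.99 in Stra8 IP and 9.55 to 10.93 in Amh IP arrays, so the sets lay more than 1 log2 unit apart. Pole2, the second subunit of polymerase epsilon, was the only member that did not pass the adjusted p alone. It was at 9.22 to 10.81 in Stra8 IP against 9.23 to 9.95 in Amh IP (difference 0.04, SE 0.06, adjusted p = 0.556). Its order changed with time: the mean was 9.22 in Stra8 IP against 9.84 in Amh IP at 0, and 10.69 against 9.37 at 6d. In total RNA of the same lines 0 members were called (limma), where 0.0301% of all genes were. An unadjusted p under 0.05 was reached by 16 members and by 6809 of 19938 genes. Of the members 10 had an adjusted p under 0.05, all lower in Stra8, where 8.55% of all genes were. Ngn3 IP differed from Stra8 IP at 0 and 4h in 0 called members, where 0.191% of all genes were called. There 13 members had an unadjusted p under 0.05, as did 4835 of 19938 genes. Of the members 6 passed the adjusted p alone, where 8.24% of all genes were higher and 4.73% lower: Cdt1 (0.45), Timeless (0.43) and Pold1 (0.42) higher, and Tk1 (-0.37), Tyms (-0.34) and Orc6 (-0.33) lower in Ngn3 IP.

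After RA, replication genes in germ cell RNA moved little by 4h and upward by 12h. At 4h, 0 members were called in Stra8 IP, where 0.241% of all genes were, with a median change of -0.04. An unadjusted p under 0.05 was reached by 3 members and by 2403 of 19938 genes. The same 4h against 0 comparison in Ngn3 IP also called 0 members, where 0.311% of all genes were called, with a median of -0.13. There 5 members had an unadjusted p under 0.05, as did 1851 of 19938 genes. At 12h all 49 differences in Stra8 IP were above 0, from 0.02 (Pole) to 1.10 (Gmnn), with a median of 0.37 against 0.00 over all genes. Of these, 12 passed the adjusted p alone, where 1.99% of all genes were higher at that threshold, and 1 was called, where 0.14% of all genes were called higher. Each of these changes is measured against the same 2 arrays at time 0.

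That gene was Gmnn, the inhibitor of relicensing. Its levels in Stra8 IP were 7.68 and 7.30 at 0, 7.49 and 7.80 at 4h, 8.73 and 8.46 at 12h, 8.36 and 8.48 at 24h, 8.78 and 8.68 at 48h, 8.00 and 8.46 at 4d, 8.82 and 8.30 at 6d, and 8.37 and 8.58 at 8d. From 12h on every array exceeded both arrays at 0. The change was 1.10 at 12h (SE 0.17, adjusted p = 1.14e-05), 0.93 at 24h (adjusted p = 0.000201) and 1.23 at 48h (SE 0.17, adjusted p = 8.93e-07). Without Stra8 IP replicate 2 at 0 the 12h change was 0.91, and without replicate 1 at 12h it was 0.97, both under 2-fold.

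The other 11 members that passed the adjusted p alone at 12h came from 8 of the 11 roles, with none from nucleotide supply, fork protection or CAF-1. They were Cdc45 (0.73), Ccne1 (0.73), Cdc6 (0.67), Prim1 (0.67), the polymerase alpha subunit Pola2 (0.62), Fen1 (0.61), Cdt1 (0.55), Mcm4 (0.54), Mcm6 (0.49), Rpa2 (0.45) and Pcna (0.41), the sliding clamp. Pola2 had the smallest p of these (SE 0.12, adjusted p = 0.000437). Cdc6 levels were 9.55 and 9.34 at 12h against 8.92 and 8.62 at 0, and the arrays did not overlap. Rrm2, the small subunit of ribonucleotide reductase, was at 10.74 and 10.57 at 12h against 9.90 and 9.66 at 0, a difference of 0.87 that did not pass the adjusted p.

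At 24h 0 members were called in Stra8 IP, where 0.441% of all genes were called. There 11 had an unadjusted p under 0.05, as did 3495 of 19938 genes. Of the members 3 were higher at an adjusted p alone, where 3.38% of all genes were (Gmnn, Fen1 at 0.60 and Pola2 at 0.42). At 48h 1 member, Gmnn, was called higher, where 0.341% of all genes were, and 11 were higher at an adjusted p alone, where 4.78% of all genes were, with Orc1 (0.87), Fen1 (0.84) and Pola2 (0.68) after Gmnn. The median difference was 0.18 at 24h and 0.31 at 48h. Without Stra8 IP replicate 1 at 0 the counts of called members were 1 at 24h and 2 at 48h.

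In Sertoli cell RNA many of these genes were lower than at 0 at most times, but not at 4d. At 12h 47 of 49 differences from 0 in Amh IP were negative, with a median of -0.51 against 0.02 over all genes. There 24 members were lower at an adjusted p alone, where 5.84% of all genes were, and 2 fell by at least 2-fold, where 0.682% of all genes were called lower. All 6 MCM genes were among the 24, from -0.59 (Mcm7) to -1.16 (Mcm2). Mcm2 levels in Amh IP were 10.84 and 10.91 at 0, 10.20 and 10.23 at 4h, 9.89 and 9.55 at 12h, 10.14 and 10.13 at 24h, 10.08 and 10.06 at 48h, 10.93 and 10.88 at 4d, 9.80 and 9.78 at 6d, and 9.91 and 9.63 at 8d. The arrays labelled 4d were at the level of time 0, and all others lay below it. The change of Mcm2 was -1.16 at 12h (SE 0.16, adjusted p = 3.18e-07), -1.08 at 6d and -1.11 at 8d. Without replicate 2 at 12h the first of these was -0.99, and without replicate 2 at 8d the last was -0.97. The other member called at 12h was Tyms, at 8.91 and 8.95 at 12h against 10.05 and 9.94 at 0 (-1.06, SE 0.14, adjusted p = 5.72e-08).

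Counts of members that fell in Amh IP were small at each time. They were 1 at 4h, where 1.32% of all genes were called lower (Rrm2, -1.13). They were 2 at 24h, where 0.451% were (Rrm2, -1.39, and Mcm10, -1.04). They were 3 at 48h, where 1% were (Ccne2, -1.28, Mcm10, -1.17, and Rrm2, -1.16), 3 at 6d, where 2.14% were (Tyms and the dUTPase gene Dut, both -1.15, and Mcm2), and 2 at 8d, where 2.69% were (Dut, -1.39, and Mcm2). At an adjusted p alone, 17 members were lower at 4h, 15 at 24h, 17 at 48h, 22 at 6d and 16 at 8d, where 6.98%, 1.28%, 5.07%, 11.9% and 11.8% of all genes were. At 4d 0 members were called, where 0.943% of all genes were called. An unadjusted p under 0.05 was reached by 8 members and by 4849 of 19938 genes. Of the differences 23 lay above 0 and 26 below it, with a median of -0.02 against 0.06 over all genes. No member rose by 2-fold at any time, and Chaf1b, a CAF-1 subunit, was the largest positive change (0.68 at 8d). Calls with 2 arrays a group were fragile here. The call of Rrm2 at 4h was lost without replicate 2 at 4h (adjusted p = 0.0614), and the count at 4h was 2 without either array at 0 or without that array. The call of Ccne2 at 48h was lost without any 1 of the 4 arrays (adjusted p between 0.057 and 0.0761), that of Rrm2 at 48h without replicate 2 at 0 or replicate 1 at 48h, and that of Mcm10 at 24h without replicate 1 at 0 (-0.99). The count at 48h was 1 without replicate 2 at 0 or replicate 1 at 48h, and that at 24h was 1 without replicate 1 at 0. Quantile normalization called 0 members at 4h and at 6d and 1 each at 12h and 24h.

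Mitosis genes were also lower than at 0 in Amh IP. The mean of 11 was 9.78 and 9.80 at 12h and 8.59 and 8.76 at 48h, against 10.68 and 10.54 at 0. That mean fell further at 48h than at 12h, while the median change of the replication genes was -0.51 at 12h and -0.35 at 48h. The part of the mitosis change in the replication genes was not tested. The germ cell mean in Amh IP was 8.15 and 8.00 at 12h, 8.45 and 8.67 at 6d and 8.79 and 8.66 at 8d, against 8.27 and 8.45 at 0.

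**Figure D3:**
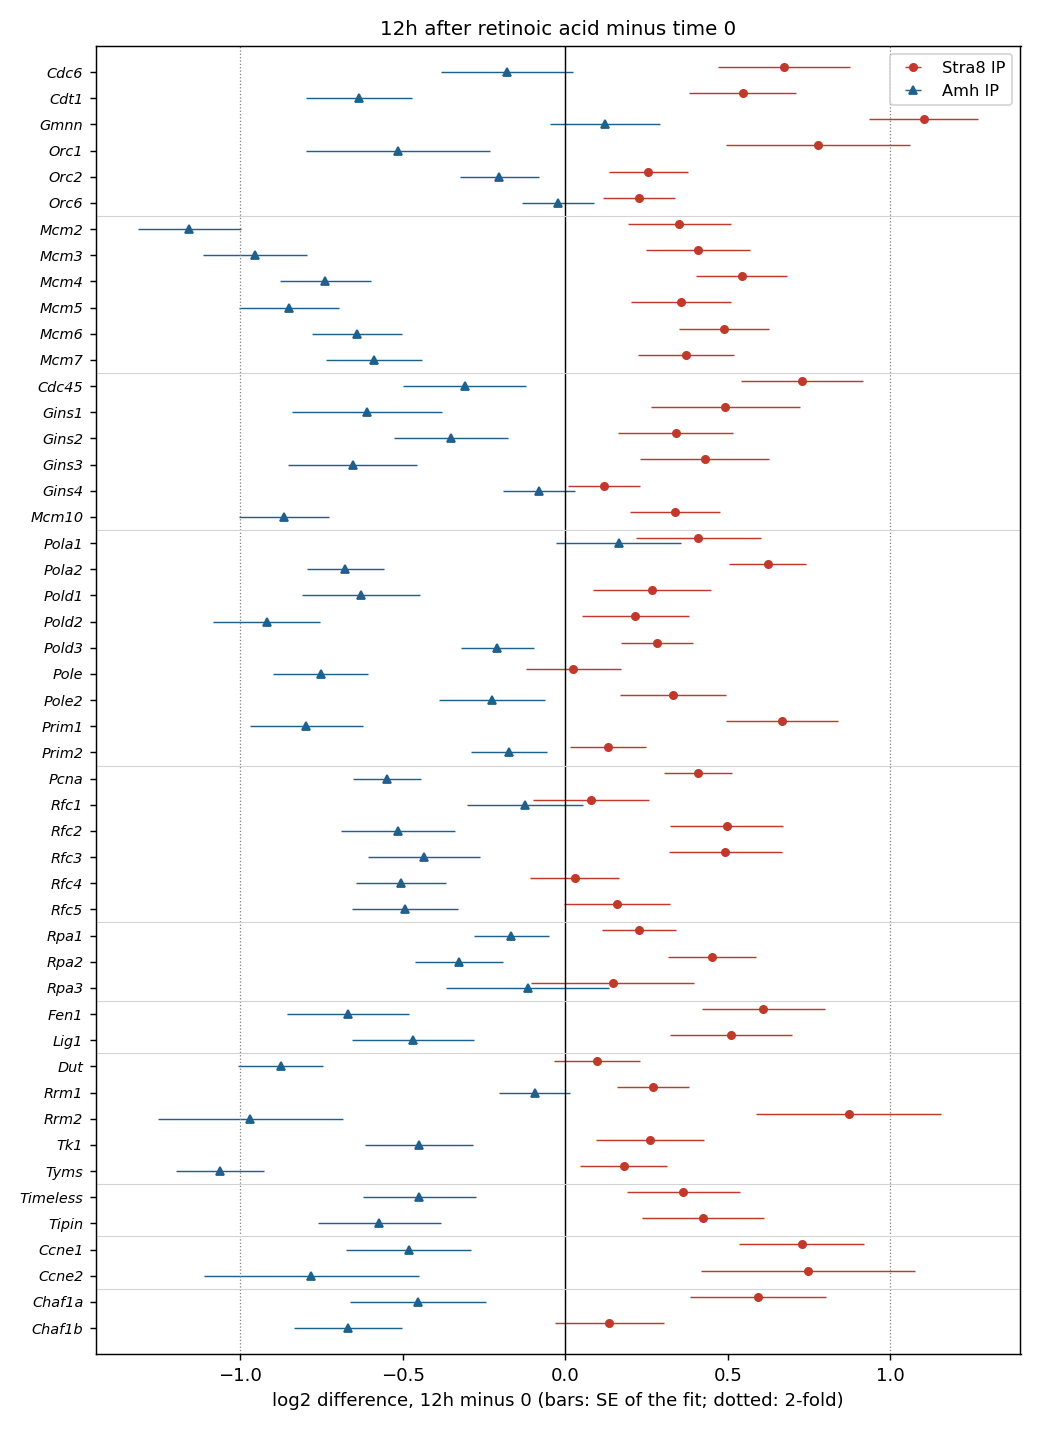
Change from time 0 to 12h for each replication gene (log2, horizontal axis) in Stra8 IP and Amh IP RNA, with the SE of the fit as bars and dotted lines at 2-fold. All 49 Stra8 points lie right of 0, and 47 Amh points lie left of it, with Gmnn and Pola1 on the other side.

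The changes in germ and Sertoli cell RNA differed from each other. The difference between lines in the change from 0 was tested for each time after the values had been seen. At 12h 21 members had a more positive change in Stra8 IP than in Amh IP and 0 a more negative one, where 1.07% of all genes were called in each direction. All 49 differences were above 0, with a median of 0.97 against -0.03 over all genes. Rrm2 (1.84, SE 0.40, adjusted p = 0.00152), Ccne2 (1.53, SE 0.47, adjusted p = 0.0304), Mcm2 (1.51, SE 0.22, adjusted p = 3.9e-06), Prim1 (1.46) and Mcm3 (1.36) led, and 5 of the 6 MCM genes were called. The call of Ccne2 was lost without any 1 of 7 of the 8 arrays (adjusted p between 0.0551 and 0.168) and with the replicate number as a block (limma, adjusted p = 0.0538). At 24h 5 members were called, where 0.672% of all genes were more positive in Stra8, and at 48h 14, where 1.22% were, all of them more positive in Stra8. At 48h the call of Gins1 (1.01) was lost with the replicate number as a block (adjusted p = 0.0686) and without any 1 of the 8 arrays (adjusted p between 0.0841 and 0.144). Without Stra8 IP replicate 2 at 0 the counts were 15 at 12h, 3 at 24h and 8 at 48h, and without replicate 1 they were 25, 8 and 16. The 24h count was also 3 without Amh IP replicate 1 at 24h, and the 48h count 9 without Amh IP replicate 1 at 0. Both lines rest on 2 arrays at time 0, and the Stra8 pair differed in their Sertoli mean (9.91 and 10.50).

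**Figure D4:**
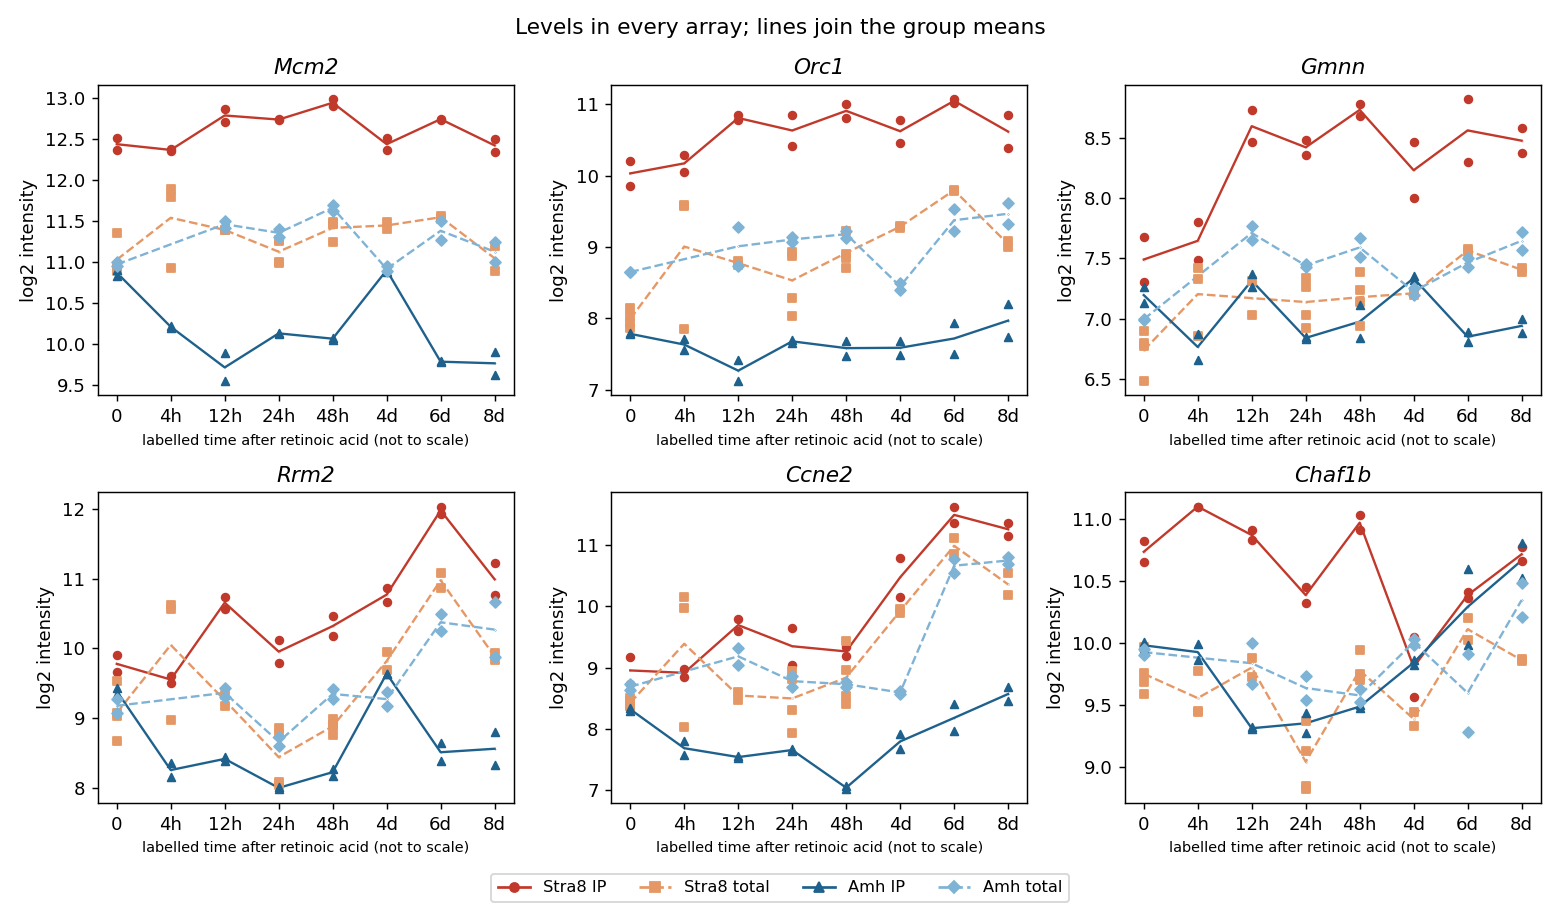
Level of 6 replication genes (log2 intensity) in every Stra8 and Amh array against labelled time, which is not to scale, with lines through the group means. Stra8 IP lies above Amh IP for 5 of them at all times, while Chaf1b arrays of the 2 IP lines overlap from 4d on, Ccne2 and Rrm2 climb late in Stra8 IP and in both total fractions, and the Amh IP arrays labelled 4d sit near those at 0 for Mcm2 and Rrm2.

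From 4d on, 2-fold calls in Stra8 IP were led by Ccne2. Cyclin E2 (Ccne2) had levels of 9.18 and 8.73 at 0, 8.85 and 8.98 at 4h, 9.79 and 9.60 at 12h, 9.65 and 9.05 at 24h, 9.19 and 9.34 at 48h, 10.16 and 10.79 at 4d, 11.63 and 11.36 at 6d, and 11.15 and 11.37 at 8d. The last 6 arrays were all above the earlier ones. It rose by 1.53 at 4d (SE 0.33, adjusted p = 0.00039), 2.54 at 6d (SE 0.33, adjusted p = 1.58e-08) and 2.31 at 8d (SE 0.33, adjusted p = 1.05e-07). Ccne1 rose by 1.03 at 4d, which was 0.93 without replicate 2 at 0 and 0.88 without replicate 2 at 4d.

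At 4d Pola1, the catalytic subunit of polymerase alpha, fell. Its levels were 8.32 and 8.92 at 4d, against 9.70 and 9.73 at 0 (-1.10, SE 0.19, adjusted p = 1.73e-05), and the change was -0.80 without replicate 1 at 4d. Chaf1b was at 9.56 and 10.05 at 4d, against 10.82 and 10.65 at 0, a difference of -0.93 short of 2-fold. In all, 2 members were called higher and 1 lower at 4d, where 0.848% and 1.1% of all genes were called. The array that was lower for both genes, replicate 1, was the one with the highest Sertoli mean (11.16, against 10.18 in replicate 2 at 4d and 9.91 and 10.50 at 0). In 16 Amh IP arrays Pola1 was at 8.70 to 9.58 and Chaf1b at 9.27 to 10.81. The part of Sertoli cell RNA in the Stra8 IP values at 4d was not tested.

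At 6d 9 members rose in Stra8 IP and 0 fell, where 3.71% and 2.27% of all genes were called, and 35 were higher at an adjusted p alone, where 18.5% of all genes were. After Ccne2 came Rrm2, at 12.03 and 11.92 at 6d against 9.90 and 9.66 at 0 (2.19, SE 0.28, adjusted p = 1.69e-08), and Pole2, at 10.56 and 10.81 against 9.23 and 9.22 (1.46, SE 0.16, adjusted p = 3.86e-10). The others were the fork protein Tipin (1.16), Cdc45 (1.15), the GINS subunit Gins2 (1.12), Gmnn (1.07), Prim1 (1.05) and Orc1 (1.01). None of the MCM genes was called, with changes between 0.08 (Mcm7) and 0.50 (Mcm5). Orc1 and Gmnn are near the limit: Orc1 was at 0.84 and Gmnn at 0.88 without replicate 2 at 0, Gmnn was at 0.81 without replicate 1 at 6d, and Orc1 was at 0.99 without replicate 2 at 6d. With quantile normalization 5 members were called. The meiotic entry list (7 genes) had a mean of 11.15 and 11.08 at 6d, against 9.20 and 8.76 at 0, and the Sertoli mean was 9.08 and 9.35, against 9.91 and 10.50.

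At 8d 4 members rose and 0 fell, where 4.38% and 3.01% of all genes were called: Ccne2 (2.31), Tipin (1.31), Rrm2 (1.21) and Gins2 (1.19). At an adjusted p alone 20 were higher and 5 lower, where 18.2% and 16.1% of all genes were, the 5 being Pola1 (-0.93), Tyms (-0.47), Dut (-0.41), Rpa1 (-0.30) and Gins4 (-0.30). The count of calls was 7 without replicate 1 at 0 and 8 without replicate 1 at 8d, and without replicate 2 at 8d Rrm2 was at 0.98. In steps tested after the values had been seen, 6 members rose and 0 fell at 6d against 4d, where 2.29% and 1.86% of all genes were called, led by Prim1 (1.48), Rrm2 (1.20), Pola1 (1.15) and Gins3 (1.08). Without replicate 1 at 4d that count was 2. Between 8d and 6d 42 of 49 differences were negative, with a median of -0.31 against 0.05 over all genes. Of the members 1 fell, Pole2 (-1.03, SE 0.16, adjusted p = 3.64e-06), where 0.657% of all genes were called lower. At an adjusted p alone 14 were lower, where 11.2% of all genes were. Pole2 was at 9.39 and 9.93 at 8d, against 10.56 and 10.81 at 6d, and its change was -0.90 without replicate 2 at 6d and -0.76 without replicate 1 at 8d. The count was 2 without replicate 1 at 6d, 3 without replicate 2 at 8d and 0 with quantile normalization.

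**Figure D5:**
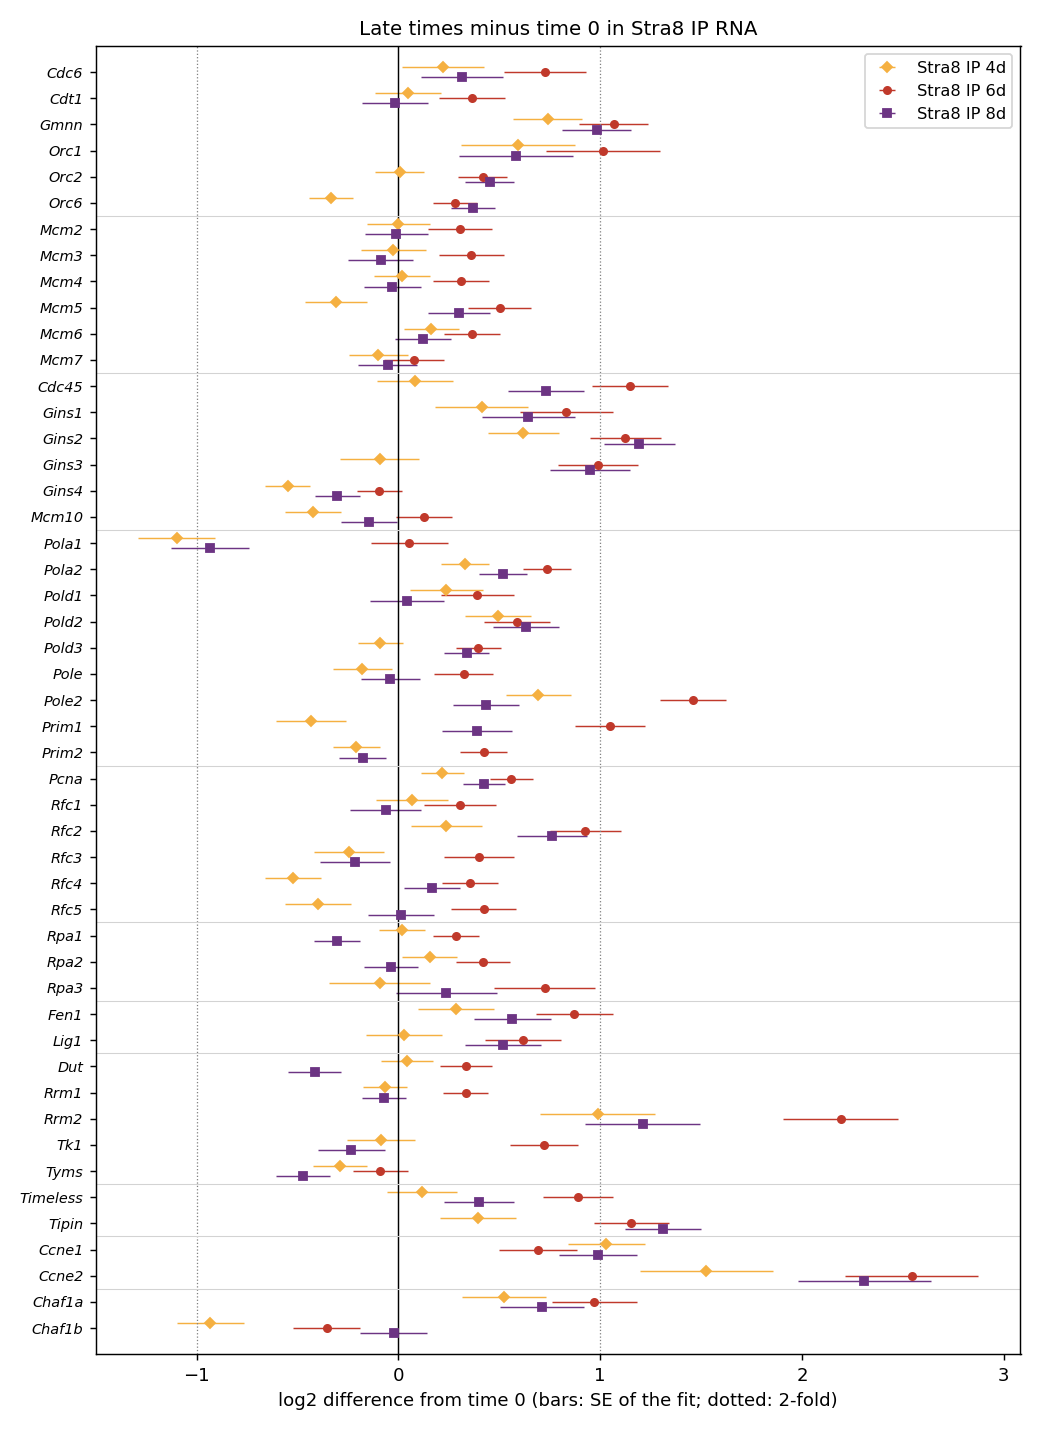
Change from time 0 in Stra8 IP RNA at 4d, 6d and 8d for each replication gene (log2, horizontal axis), with the SE of the fit as bars and dotted lines at 2-fold. Ccne2 and Rrm2 lie farthest right, Pola1 at 4d farthest left, and the 6d points of most genes lie right of the 8d points.

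The late times (6d and 8d) were also set against the early ones (0, 12h and 24h) as means, which rest on more arrays. In Stra8 IP 4 members rose and 0 fell, where 2.8% and 0.913% of all genes were called: Ccne2 (2.04), Rrm2 (1.35), Gins2 (1.05) and Tipin (1.01). Without Stra8 IP replicate 1 at 6d the count was 2, with Gins2 at 0.99 and Tipin at 0.97, and it was 2 with quantile normalization. In Amh IP 0 members were called, where 2.71% of all genes were. An unadjusted p under 0.05 was reached by 22 members and by 8490 of 19938 genes. At an adjusted p alone 9 were higher and 9 lower, where 19% and 16.2% of all genes were, with Chaf1b (0.93) and Dut (-0.88) at the ends. Without Amh IP replicate 1 at 6d 1 member was called. The difference between these changes was called for 5 members, 4 more positive in Stra8 and 1 more negative, where 3.64% and 2.21% of all genes were. They were Ccne2 (1.51, SE 0.30, adjusted p = 4.91e-05), Rrm2 (1.42, SE 0.26, adjusted p = 1.31e-05), Gins2 (1.19, SE 0.16, adjusted p = 2.63e-08), Tipin (1.11, SE 0.17, adjusted p = 4.93e-07) and Chaf1b (-1.04, SE 0.15, adjusted p = 1.64e-07). With quantile normalization 3 were called. Taken as single times against 0, a comparison added after the values had been seen, the difference between lines was called for 28 members at 6d, where 6.07% of all genes were more positive in Stra8, and for 9 at 8d, where 5.55% were, all of them more positive in Stra8. Rrm2 (3.07), Ccne2 (2.69) and Pole2 (1.94) led at 6d, and Ccne2 (2.07), Rrm2 (2.04) and Tipin (1.54) at 8d.

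Chaf1b had the largest positive late change in Sertoli cell RNA. Its levels in Amh IP were 9.95 and 10.01 at 0, 9.30 and 9.32 at 12h, 9.43 and 9.27 at 24h, 9.98 and 10.60 at 6d, and 10.52 and 10.81 at 8d. At 8d both arrays exceeded those at 0, and at 6d the replicates differed by more than 0.5. The difference between lines was -0.89 without Amh IP replicate 2 at 6d and -0.97 without replicate 2 at 8d. The meiotic entry mean in Amh IP was 8.39 and 8.88 at 6d and 9.26 and 9.46 at 8d, against 7.40 and 7.47 at 0, and its part in the Chaf1b values was not tested.

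Total RNA followed the late rise of the same leading genes. In Stra8 total RNA Ccne2 (2.19), Rrm2 (1.50), Tipin (1.14) and Gins3 (1.03) rose at late against early times and 0 fell, where 2.24% and 0.512% of all genes were called. In Amh total RNA Ccne2 (1.82), Rrm2 (1.25) and Prim1 (1.02) rose and 0 fell, where 1.6% and 0.923% were. Gins3 in Stra8 total RNA was at 0.97 without replicate 1 at 6d and 0.95 without the 3 arrays of narrow range, and Prim1 in Amh total RNA was between 0.91 and 1.00 without any 1 of 4 arrays, all under 2-fold. At an adjusted p alone 35 members were higher in Stra8 total and 30 in Amh total RNA, where 25.8% and 19.3% of all genes were. Ccne2 was at 10.78 and 10.55 at 6d and 10.70 and 10.80 at 8d in Amh total RNA, against 8.64 and 8.74 at 0, while in Amh IP RNA it was at 7.96 and 8.40 at 6d and 8.46 and 8.68 at 8d, against 8.34 and 8.30 at 0. The late change was more negative in Amh IP than in Amh total RNA for 3 members, where 0.963% of all genes were called lower: Rrm2 (-1.32, SE 0.26, adjusted p = 0.000168), Ccne2 (-1.29, SE 0.30, adjusted p = 0.0013) and Tipin (-1.03, SE 0.17, adjusted p = 1.2e-05). Tipin was between -0.95 and -1.00 without any 1 of 5 arrays. In the Stra8 line the late change differed between IP and total RNA in 0 called members, where 0.968% of all genes were called. An unadjusted p under 0.05 was reached by 23 members and by 6155 of 19938 genes. At an adjusted p alone 14 members were more negative in IP, where 12.5% of all genes were.

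A second list of replication and S-phase genes that are not members (57 of 59 names were measured) was also counted. Of these, 16 were called higher and 0 lower in Stra8 IP than in total RNA (3.84% and 5.37% of all genes), and 14 higher and 0 lower in Ngn3 IP than in total RNA (6.18% and 6.75% of all genes). In Amh IP 0 were called higher and 9 lower than in total RNA (1.1% and 3.94% of all genes), and 25 were called higher and 0 lower in Stra8 IP than in Amh IP (7.54% and 9.26% of all genes). Between cell types the largest differences were those of the chromatin remodeller Hells (2.83) and its partner Cdca7 (3.16), of Uhrf1 (2.57), a maintenance methylation factor, and of the histone chaperone Asf1b (2.55). In Amh IP 6 of them fell at 12h (0.682% of all genes did) and 9 at 48h (1% of all genes did), when cyclin A2 (Ccna2, -2.75) and the repressor E2f8 (-2.11) fell most. In Stra8 IP 9 rose at 6d (3.71% of all genes did), with the translesion polymerase Polh (1.68), the pocket protein Rbl1 (1.65), the fork factor Donson (1.63) and Atad5 (1.58), which unloads the clamp, at the top.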

How the data were processed

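RNA of 77 samples was hybridised to 1-colour gene-level arrays, 1 array each. The deposited values are intensity values on a linear scale, normalized by RMA per the submitters' processing notes; the software, its version and its settings: not given in the sources used here. Their log2 was taken from the deposited intensities, with no other scaling. Array medians were 252.6 to 300.5. Of 28853 probe sets, 21789 were listed with 1 gene, 1621 with several and 5443 with none; 99.6% of those with 1 gene were matched by gene number. The probe set of highest mean stood for each of 19938 genes, among them 3 members with several probe sets.

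One mean per group (35 groups) was fitted with limma 3.58.1 (lmFit and eBayes with an intensity trend, R 4.3.3, 42 residual degrees of freedom), with Benjamini-Hochberg adjustment over all genes, for 28 planned comparisons and 7 added after the values were seen. The scripts were tested on simulated data. Figures were drawn with matplotlib 3.10.9. The number of arrays limits precision.

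The members and lists were chosen with earlier results of these data known. Any member could be named; values per array were given for fixed members of each role and up to 5 called members per direction whose arrays did not overlap, and of the other replication genes up to 4 called per direction.

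Alternatives were no 2-fold minimum, median centring, quantile normalization, a filter on low signal, the mean of probe sets, no intensity trend, only the compared groups, the replicate number as a block, leaving out each array, and leaving out arrays that stood apart. Replicate numbers come from the labels. Deviations of IP and total arrays with the same number correlated above 0.1 in 14 of 14 pairs in the Amh line (0.114 to 0.585). They did so in 4 of 4 in the Ngn3 line (0.249 to 0.259) and in 7 of 16 in the Stra8 line. With 2 arrays in both groups, the pairs of a time give the same value, so they are not independent. The Amh and Ngn3 arrays may be paired, but the main fit treated all arrays as unpaired.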

Additional observations from a re-analysis of the deposited data

Results flagged for a closer look

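Among the 3 groups of 4 arrays, all Stra8 total RNA, 147 tests for an array far from the others (Dixon's test, 1 per member and group) found 6, where chance gives about 1 in 20. Replicate 3 at 0 was the highest for Mcm2 (11.36, a gap of 0.851 of the range), Mcm6 (10.19, gap 0.845) and Rfc3 (9.47, gap 0.839), and replicate 2 at 0 the lowest for Pole2 (9.27, gap 0.873). Replicate 3 at 48h was the lowest for Mcm2 (11.25, gap 0.931) and Fen1 (8.95, gap 0.831).

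The late change (6d and 8d against 0, 12h and 24h) differed between Stra8 IP and Amh IP, by a test of the difference, for Ccne2 (1.51), Rrm2 (1.42), Gins2 (1.19), Tipin (1.11) and Chaf1b (-1.04). It differed between Amh IP and Amh total RNA for Rrm2 (-1.32), Ccne2 (-1.29) and Tipin (-1.03). The change from 0 differed between Stra8 IP and Amh IP for 21 members at 12h, 5 at 24h, 14 at 48h, 28 at 6d and 9 at 8d, in comparisons chosen after the values had been seen.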

How the results depend on the processing

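Of 4950 values of called members under the alternatives, 4740 kept their direction and their call, 210 kept the direction but lost the call, and 0 reversed. These sums pool unlike settings: 3201 values came from leaving out each array, and a call cannot be lost with no 2-fold minimum. Quantile normalization alone lost 46 of 208 calls, and median centring lost 13 of 208. With no 2-fold minimum the counts of members were 49 (Stra8 IP against total), 40 (Amh), 42 (Ngn3), 48 (Stra8 against Amh IP), 10 (Stra8 against Amh total) and 6 (Ngn3 against Stra8 IP); in Stra8 IP against 0 12 at 12h, 3 at 24h, 11 at 48h, 14 at 4d, 35 at 6d and 25 at 8d; in Amh IP against 0 17 at 4h, 24 at 12h, 15 at 24h, 17 at 48h, 4 at 4d, 22 at 6d and 18 at 8d. For late against early times they were 26 (Stra8 IP), 18 (Amh IP), 36 (Stra8 total) and 31 (Amh total), and for the differences between these 23 (Stra8 and Amh IP), 15 (Stra8 IP and total) and 24 (Amh IP and total). For the difference between lines in the change from 0 they were 34 at 12h, 16 at 24h, 23 at 48h and 29 at 8d, and for steps in Stra8 IP 30 at 6d against 4d and 14 at 8d against 6d. Median centring gave 1 for Amh IP at 24h and 2 for 8d against 6d. Quantile normalization gave 5 for Stra8 IP at 6d, 0, 1, 1 and 0 for Amh IP at 4h, 12h, 24h and 6d, 2 for late Stra8 IP, 3 for its difference from Amh IP, 3 for 6d against 4d and 0 for 8d against 6d. The mean of probe sets gave 2 for Amh IP at 4h, and leaving out the Amh arrays labelled 4h and 4d gave 15 for Amh IP against total. Leaving out each array in turn gave 19 to 21 (Stra8 IP against total), 8 to 10 (Amh), 12 to 15 (Ngn3) and 31 to 31 (Stra8 against Amh IP); in Stra8 IP 0 to 1 at 12h, 0 to 1 at 24h, 1 to 2 at 48h, 3 to 4 at 4d, 7 to 11 at 6d and 3 to 8 at 8d; in Amh IP 1 to 2 at 4h, 2 to 3 at 12h, 1 to 3 at 24h, 1 to 2 at 48h, 3 to 4 at 6d and 2 to 2 at 8d. It gave 2 to 4 (late Stra8 IP), 0 to 1 (late Amh IP), 3 to 5 (late Stra8 total), 2 to 4 (late Amh total), 4 to 6 (difference between IP lines) and 2 to 3 (Amh IP and total); for the difference between lines 15 to 25 at 12h, 3 to 8 at 24h, 8 to 16 at 48h, 24 to 32 at 6d and 7 to 13 at 8d; 2 to 8 at 6d against 4d and 1 to 3 at 8d against 6d; and 0 to 0 in the comparisons with 0 calls not named here. With 1 array left in a group, it is assumed to vary like the other groups. With the replicate number as a block no count moved by over 1.5 times, the calls lost being Ccne2 at 12h (1.53) and Gins1 at 48h (1.01) in the difference between lines. The cause of these changes was not tested.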
